A study of Mus musculus with 6 samples.

Results

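Serpins are a family of protease inhibitors, sorted into clades by sequence and named after the clade letter and a number. The family was taken as every gene of the count tables whose symbol is Serpin, a clade letter from a to i, a number and at most 1 further letter, which gave 63 of 24982 genes. PolyA RNA was sequenced from liver of male C57BL/6NJ mice, a common laboratory strain, in 3 samples fed chow and 3 samples fed a diet rich in fat together with sugar water (high fat high sugar, HFHS). The feeding lasted 54 weeks, and the series presents the diet as a model in which fatty liver disease leads to liver cancer. The labels name no genetic change in either group. They list separate samples without stating that each came from a different mouse, so a p-value here weighs only the scatter among samples, which may be technical.

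A serpin inhibits by being cut. It offers a flexible segment, the reactive centre loop, as bait; the protease cuts the loop, the serpin snaps into another fold, and the protease is trapped on it. Hepatocytes make most of the serpins of blood plasma, among them alpha-1-antitrypsin (the Serpina1 genes), antithrombin (Serpinc1), alpha-2-antiplasmin (Serpinf2) and C1 inhibitor (Serping1). Clade B serpins stay mostly inside cells, and several protect leukocytes from their own granule proteases. A few members inhibit nothing, such as the hormone carriers Serpina6 and Serpina7 and the collagen chaperone Serpinh1.

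Mice carry several near-identical Serpina1 genes side by side on chromosome 12, where humans have 1 alpha-1-antitrypsin gene. Serpina1a to Serpina1e were 96.3% to 98.47% identical over the 1242 coding bases compared, and the differences were unevenly spread. The 75-base stretch with the most bases that varied among the 5 copies was bases 1099 to 1173 of the coding sequence, which encodes the reactive centre loop. It is shown because it is where the copies can be told apart best, and where they present different bait to proteases. Within it 19 of 75 bases varied (25.33%), against 67 in the rest of the coding sequence (5.74%). The stretch lies in the last exon of each transcript, is read from the minus strand of GRCm38 (mm10) at chr12:103853744-103853818 for Serpina1a, chr12:103728311-103728385 for Serpina1b, chr12:103895081-103895155 for Serpina1c, chr12:103763749-103763823 for Serpina1d and chr12:103947087-103947161 for Serpina1e, and ends 66 bases before the stop codon. Capitals mark the bases that were not the same in all 5 copies.
Serpina1a: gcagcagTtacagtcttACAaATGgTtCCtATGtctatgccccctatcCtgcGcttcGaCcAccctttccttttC
Serpina1b: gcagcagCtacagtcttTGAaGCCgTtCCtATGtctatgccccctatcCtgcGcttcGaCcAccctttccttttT
Serpina1c: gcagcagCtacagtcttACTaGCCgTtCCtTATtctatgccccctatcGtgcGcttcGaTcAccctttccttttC
Serpina1d: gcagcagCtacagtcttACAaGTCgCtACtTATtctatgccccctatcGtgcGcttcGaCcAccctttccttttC
Serpina1e: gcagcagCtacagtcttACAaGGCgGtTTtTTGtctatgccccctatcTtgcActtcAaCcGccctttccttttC
Serpina1c and Serpina1d differed at 5 of the 75 bases, the fewest of any pair, although Serpina1a and Serpina1c were the closest pair over the whole coding sequence, with 19 differences.

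Outside such stretches the copies share long runs of sequence, which limits what a read can say about its gene. In the longest coding transcript of each gene, 25.84% of the 50-base stretches of Serpina1c and 32.57% of those of Serpina1a occurred in no other mouse gene. The shares were 49.07% for Serpina1d, 64.21% for Serpina1b and 64.42% for Serpina1e. At 100 bases they were 41.52%, 50.07%, 70.66%, 79.43% and 85.23% in the same order. The Serpina3 copies were better separated, with 80.93% for Serpina3m and 85.96% for Serpina3k at 50 bases, and their coding sequences, the closest pair of that group, were 92.46% identical. Of the tested members outside these groups, Serpina11 was also low, at 55.58%, and the gene that shared most of its other stretches was Gm28577, a predicted transcript that overlaps it. Neither the read length nor the handling of reads with several matching genes is stated in the labels, so values of single Serpina1 copies are uncertain, and their sum is given beside them.

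**Figure D1:**
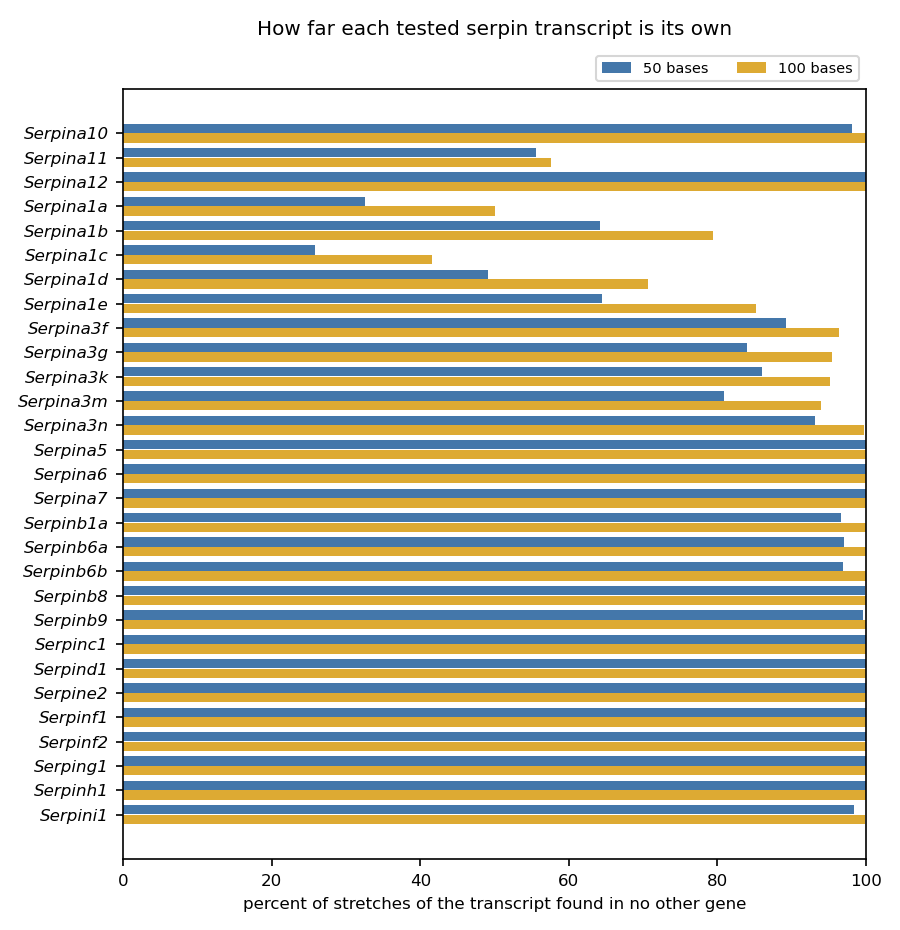
For 29 serpins tested, the bars give the percent of 50-base (blue) and 100-base (yellow) stretches of its transcript that occur in no other gene. Serpina1a, Serpina1c and Serpina1d lie below 50% for 50-base stretches, Serpina1b and Serpina1e lie near 64%, Serpina11 at 55.58%, and every other serpin shown is above 80%.

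The Serpina1 copies also have near-identical promoters. The 80 bases shown hold GTTAAT, a half-site of the hepatocyte factor HNF1, in capitals, with 40 bases before it, on the minus strand of GRCm38.p6 as given by RefSeq. They span chr12:103863601-103863680 for Serpina1a, chr12:103738176-103738255 for Serpina1b, chr12:103904938-103905017 for Serpina1c, chr12:103773610-103773689 for Serpina1d and chr12:103956936-103957015 for Serpina1e. They are shown because the copies are about as alike here as in their coding sequences.
Serpina1a: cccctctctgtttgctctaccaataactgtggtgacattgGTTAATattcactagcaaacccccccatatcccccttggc
Serpina1b: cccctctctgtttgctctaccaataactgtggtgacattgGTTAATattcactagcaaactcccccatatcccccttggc
Serpina1c: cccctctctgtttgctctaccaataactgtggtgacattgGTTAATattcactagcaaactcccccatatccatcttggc
Serpina1d: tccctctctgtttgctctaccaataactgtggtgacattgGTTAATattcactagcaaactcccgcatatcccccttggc
Serpina1e: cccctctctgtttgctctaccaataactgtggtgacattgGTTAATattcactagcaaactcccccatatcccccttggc
At 75 of the 80 positions all 5 copies had the same base. Searched on both strands of the window around each start that the table gives, GTTAAT was in 11 of the 53 serpin promoters that RefSeq's table held and in 1946 of all 27025 promoters (7.2%). The 11 include all 5 of these near-identical Serpina1 copies, so they are not 11 independent matches. The CCAAT box (CCAAT) was in 19 of the 53 and in 37.92% of all, and a STAT element (TTCNNNGAA) in 8 of the 53 and in 8.47% of all. In all 5 Serpina1 copies a CCAAT on the opposite strand overlaps the first base of GTTAAT. A match is a description only.

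Of the 63 serpin genes, 11 had 0 counts in all 6 libraries, 11 had 1 to 9 counts summed over the libraries, and 41 had 10 or more. Clade A held 25 genes, of which 21 had 10 or more counts, and clade B held 27, of which 11 did. Clades C, D, G and H held 1 gene each, and clades E, F and I held 7 together, of which 5 reached 10 counts. Gene counts totalled 16565335 to 20585366 per library, and 3 counts, the floor used here, stand for 0.115 to 0.202 CPM, counts scaled to library size. A filter on low counts, which left 12949 genes, kept 30 serpins, and Serpina5 and Serpini1 passed it through the HFHS libraries only. The 11 serpins with 10 or more counts that it removed had summed counts of 10 to 57 and at most 1.48 CPM in any library.

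In the HFHS libraries 6 serpins rose and 4 fell, by edgeR's quasi-likelihood test with a Benjamini-Hochberg adjusted p under 0.05. The 6 of 30 came to 20.0%, where 11% of all tested genes rose, and the 4 of 30 to 13.3%, where 3.61% of all tested genes fell. The 6 include Serpini1, which passed the filter through the HFHS libraries only. Those that rose included the collagen chaperone Serpinh1, the intracellular inhibitors Serpinb6a, Serpinb6b and Serpinb9, and neuroserpin, Serpini1. The elastase inhibitor Serpinb1a, the alpha-1-antitrypsin copies Serpina1a and Serpina1c, and the plasmin inhibitor Serpinf2 fell. The log2 fold change of HFHS against chow was above 0 for 14 and below 0 for 16 of the 30, with a median of -0.05 beside -0.02 over all genes. In 9 serpins all 3 HFHS libraries lay above all 3 chow libraries and in 9 they lay below, where 21.5% and 18% of all genes did. Those above include Serpina5 and Serpini1, which passed the low-count filter through the HFHS libraries only, so that count is a description.

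**Figure D2:**
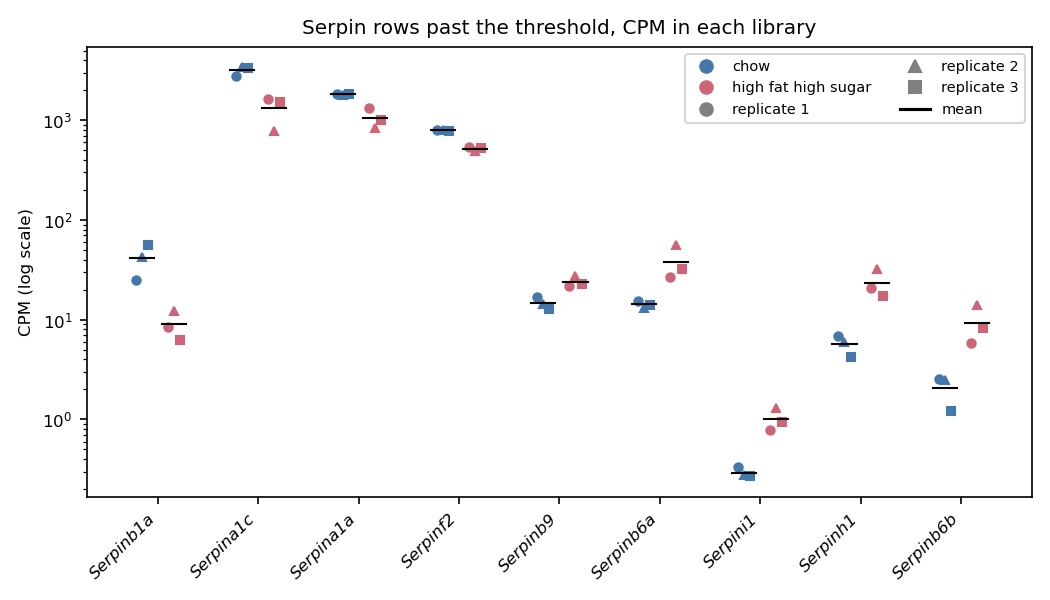
CPM on a log scale for 9 serpins past the threshold, 1 symbol per library (circle, triangle and square for replicates 1, 2 and 3; blue chow, red high fat high sugar) and a bar at each group's mean. The groups of none of the 9 overlap, and the genes span from below 1 CPM (Serpini1) to mean levels of 1059 to 3171 CPM (Serpina1a and Serpina1c).

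These calls rest on small groups. Without chow replicate 3, edgeR called 0 serpins, with 16 of 32 tested at an unadjusted p under 0.05, and 4 genes higher and 2 lower over the whole table. Serpinh1 and Serpinb1a kept their calls in 5 of 6 fits that each left out 1 library, losing them only without chow replicate 3. Serpinb6b and Serpinb9 also lost theirs without chow replicate 2, and Serpinb6a without chow replicate 1 or 2. Of the rest described here, 4 kept theirs in 2 of 6 fits, Serpina1c and Serpinf2 without HFHS replicate 2 or 3, Serpini1 without HFHS replicate 1 or 3, and Serpina1a without HFHS replicate 1 or 2. Without chow replicate 2, 2 serpins rose and 2 fell, and without HFHS replicate 1, 2 fell. None of these 9 log2 fold changes changed sign in any of these fits. HFHS replicate 2 stood apart, with correlations across genes of 0.961 and 0.957 with the others of its group, which correlated at 0.982 with each other.

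The plot of log2 fold changes by clade sets 29 of the 30 side by side. In clade A, edgeR called 2 of 16 lower and 0 higher, where 5 were lower and 2 higher by DESeq2 and also at an unadjusted p under 0.05. In clade B, 3 of 5 rose and 1 fell, the same counts as by DESeq2 and limma-voom, beside 11% and 3.61% of all tested genes by edgeR. Over all genes DESeq2 called 14% higher and 7.53% lower, limma-voom 7.7% and 2.88%, and edgeR with library size only 14.9% and 1.54%, and 19.5% were higher and 12.8% lower at an unadjusted p under 0.05.

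**Figure D3:**
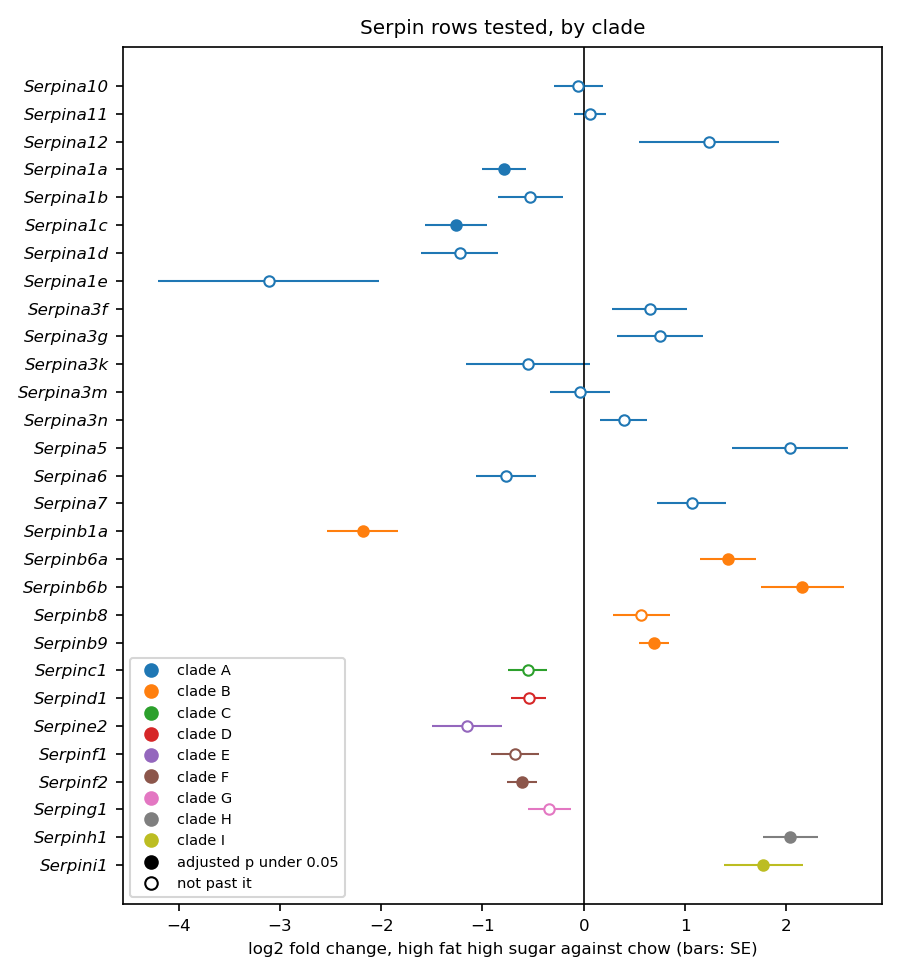
Log2 fold change of high fat high sugar against chow for 29 serpins tested, with bars of 1 standard error, coloured by clade; filled points passed the edgeR threshold. Clades C, D, F and G lie below 0 in full, clades H and I above it, and clades A and B on both sides.

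Alpha-1-antitrypsin is the main plasma inhibitor of neutrophil elastase. Serpina1c (chr12:103894926-103904950) had 2785, 3392 and 3336 CPM in chow and 1646, 783 and 1532 CPM in HFHS. All 3 HFHS libraries were below all 3 chow libraries, and replicate 2 was the lowest. Its mean fell from 3171 ± 336 to 1321 ± 469 CPM (SD, n = 3 each), a log2 fold change of -1.26 ± 0.31 (SE), edgeR adjusted p = 0.0343.

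Serpina1a (chr12:103853295-103863619) had 1833, 1799 and 1857 CPM in chow and 1321, 844 and 1011 CPM in HFHS. The chow libraries were close together and all 3 HFHS libraries lay below them. The log2 fold change was -0.79 ± 0.22 (SE) with an edgeR adjusted p of 0.0492, just inside the threshold, and it passed in 2 of 8 alternative settings.

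Serpina1d had 3217, 2794 and 3245 CPM in chow and 1573, 619.7 and 1766 CPM in HFHS. These groups did not overlap either, but the log2 fold change of -1.23 ± 0.38 (SE) missed the threshold (edgeR adjusted p = 0.0673). It passed with DESeq2 (adjusted p = 0.00276) and in edgeR without HFHS replicate 2 (-0.88, adjusted p = 0.0144). Serpina1b, the most abundant copy in CPM, had 4170.1, 4430.2 and 4296 CPM in chow and 3359, 1691 and 3899 CPM in HFHS. It too lay lower in every HFHS library, with a log2 fold change of -0.53 ± 0.32 (SE) and an edgeR adjusted p of 0.296.

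Serpina1e varied most within a group. It had 319.5, 2963 and 932 CPM in chow and 353, 44.0 and 90.4 CPM in HFHS, so that chow replicate 1 lay below HFHS replicate 1. At -3.11 ± 1.09 (SE) its log2 fold change was the largest of all 30 in size, yet the test missed the threshold (edgeR adjusted p = 0.107), which DESeq2's passed (adjusted p = 0.0412). Serpina1f, 62.59% to 63.63% identical to the other 5 over the coding bases that align, had 0 counts in every library.

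Summed, the Serpina1 copies had 12325, 15380 and 13666 CPM in chow and 8253, 3982 and 8299 CPM in HFHS. Of all gene counts they took 1.11%, 1.45% and 1.23% in the chow libraries, against 0.844%, 0.503% and 0.842% in the HFHS libraries. The groups did not overlap, and HFHS replicate 2 had the least. Fitted as 1 gene, the sum gave -1.01 ± 0.33 (SE) on the log2 scale, short of the threshold (edgeR adjusted p = 0.0786). It passed with DESeq2 (adjusted p = 0.00282) and in edgeR without HFHS replicate 2 (-0.73, adjusted p = 0.0478).

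The mix of copies was compared as each copy's percent of the Serpina1 counts in a library. Serpina1b made up 33.8%, 28.8% and 31.4% in chow and 40.7%, 42.5% and 47.0% in HFHS, higher in every HFHS library. Serpina1c made up 22.6%, 22.1% and 24.4% in chow and 19.9%, 19.7% and 18.5% in HFHS, lower in every HFHS library. The shares of Serpina1a (11.7% to 14.9% in chow, 12.2% to 21.2% in HFHS), Serpina1d (18.2% to 26.1%, 15.6% to 21.3%) and Serpina1e (2.59% to 19.3%, 1.09% to 4.28%) overlapped between the diets. A two-sided exact permutation test of 3 against 3 libraries cannot give a p below 0.1, so no share could pass that test. The shares were not tested in another way.

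**Figure D4:**
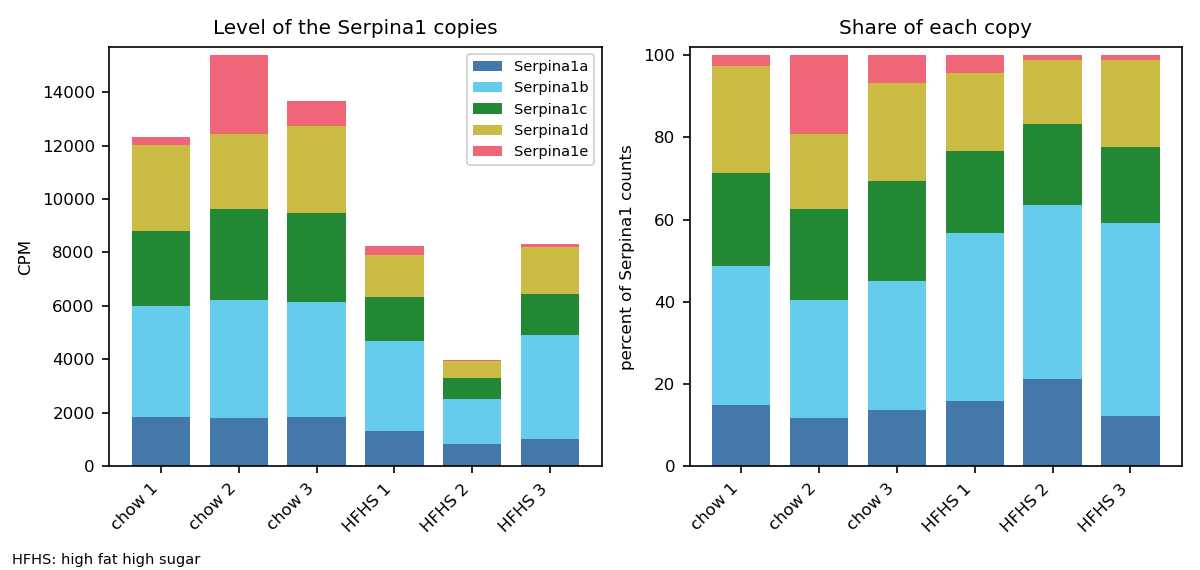
Left, CPM of Serpina1a to Serpina1e stacked for each library; right, each copy's percent of the Serpina1 counts. The stacks reach 12325 to 15380 CPM in the chow libraries and 3982 to 8299 CPM in the high fat high sugar libraries, and the Serpina1b band (light blue) takes a larger part of each high fat high sugar library.

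Levels of different genes can be compared only per length. Per kilobase of annotated exon, chow means were highest for Serpina3k (2766 CPM per kilobase), Serpina1c (2330.0), Serpina1d (2213) and Serpina1b (1780.0), followed by Serpina1a (999) and Serpina1e (869). The next were Serping1 (427), Serpinf2 (341), Serpina6 (334), Serpind1 (320.4) and Serpinc1 (277). The order depends on the annotation, and for the Serpina1 copies also on how shared reads were counted, which is not stated. The length is that of all annotated exons merged. It was 8546 bases for Serpinc1 and 2415 for Serpina1b, where their longest coding transcripts have 4970 and 1762 bases. All serpins together took 2.18%, 2.88% and 2.31% of the counts of chow libraries, against 1.94%, 1.29% and 2.05% for HFHS.

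Hepatocytes make these proteins. Of 7 hepatocyte markers other than Serpina1c, edgeR called 1 lower, Pck1, an enzyme of glucose synthesis, beside 3.61% of all tested genes. DESeq2 called 4 of the 7 lower, beside 7.53%. Ass1, also among the 7, had only 91 counts over the 6 libraries. The Pck1 call (log2 fold change -1.62, edgeR adjusted p = 0.0344) was kept in 1 of 6 fits that each left out 1 library, the one without HFHS replicate 3. None rose by edgeR or DESeq2, and 0 were higher at an unadjusted p under 0.05. Their summed level was 89865 to 112120 CPM in chow and 33749 to 87470 CPM in HFHS, with replicate 2 lowest. The largest, albumin (Alb), did not pass (log2 fold change -0.70), and apolipoprotein A-I (Apoa1) had a log2 fold change of -0.03. The part of this in the serpin values was not tested, and in bulk liver fewer cells of a type and less RNA per cell cannot be told apart.

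The Serpina3 genes are the mouse counterparts of alpha-1-antichymotrypsin, expanded like the Serpina1 genes, and several are acute phase genes. Of the 5 tested, edgeR called 0, as did DESeq2 and limma-voom, and 0 were under an unadjusted p of 0.05. Serpina3k, the most abundant, had 3894, 8436 and 4741 CPM in chow and 4789, 1033 and 5851 CPM in HFHS, with a log2 fold change of -0.55 ± 0.61 (SE) and an edgeR adjusted p of 0.577. Its range was widest in HFHS, where replicate 2 held the lowest value of all 6 libraries. Serpina3n, which inhibits granzyme B and leukocyte elastase, had 477, 289.9 and 336 CPM in chow and 572, 442 and 433 CPM in HFHS (edgeR adjusted p = 0.277).

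Serpina3m had 444, 201 and 419 CPM in chow and 297, 383 and 355 CPM in HFHS, with a log2 fold change of -0.04 whose sign turned under upper-quartile scaling (0.052) and with library size only (0.25). Serpina3g, which inhibits lysosomal cathepsins inside cells, had 13.3, 6.82 and 5.19 CPM in chow and 8.58, 14.0 and 20.3 CPM in HFHS (log2 fold change 0.75, edgeR adjusted p = 0.270). Serpina3f was similar, at 1.89 to 3.67 CPM in chow and 2.74 to 6.03 CPM in HFHS. The other 6, Serpina3a, Serpina3b, Serpina3c, Serpina3h, Serpina3i and Serpina3j, were too low to test. Summed, the Serpina3 genes had 4833, 8937 and 5503 CPM in chow and 5670.4, 1878 and 6667 CPM in HFHS, and the sum did not pass (log2 fold change -0.44 ± 0.48 (SE), edgeR adjusted p = 0.566).

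Serpina3k made up 80.6% to 94.4% of the Serpina3 counts in chow and 84.5% and 87.8% in HFHS replicates 1 and 3. In HFHS replicate 2 it made up 55.0%, with 23.5% from Serpina3n and 20.4% from Serpina3m. In the other 5 libraries Serpina3n took 3.24% to 10.1% and Serpina3m 2.25% to 9.19%.

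The hormone carriers of clade A did not pass in edgeR over all 6 libraries, though DESeq2 called Serpina6 lower (adjusted p = 0.0396) and Serpina7 higher (adjusted p = 0.00956). Serpina6, which carries glucocorticoids in plasma, had 735, 336 and 695 CPM in chow and 303, 359 and 373 CPM in HFHS, with a log2 fold change of -0.77 ± 0.30 (SE) and an edgeR adjusted p of 0.118. Chow replicate 2 lay among the HFHS values. Without it the log2 fold change was -1.06 with an edgeR adjusted p of 0.0467, and without each of the other 5 libraries the adjusted p was 0.151 to 0.304. Serpina7, the thyroxine carrier, had 162, 107 and 63.7 CPM in chow and 207, 193 and 297 CPM in HFHS. The groups did not overlap, and the log2 fold change of 1.07 ± 0.34 (SE) missed the threshold (edgeR adjusted p = 0.0765). It passed in edgeR with library size only (1.32, adjusted p = 0.0339) and without chow replicate 1 (1.44, adjusted p = 0.0449), and without each of the other 5 libraries the adjusted p was 0.112 to 0.179.

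Serpina12, or vaspin, an inhibitor of kallikrein 7 known as a factor of fat tissue, had 17.2, 109.6 and 26.5 CPM in chow and 119, 90.0 and 153 CPM in HFHS. Chow replicate 2 lay within the HFHS range, and the test over all 6 libraries did not pass (edgeR adjusted p = 0.273). Without that library the log2 fold change was 2.46 with an edgeR adjusted p of 0.0351, while without each of the other 5 libraries it was 0.81 to 1.41 with an adjusted p of 0.366 to 0.504. The library that breaks the separation of the groups is the one whose removal gave the pass, so that value is a description of the spread. Serpina5, the protein C inhibitor, passed the low-count filter through the HFHS libraries only. It was near the floor, at 0.0556, 0.330 and 0.337 CPM in chow and 0.723, 0.924 and 1.34 CPM in HFHS. It narrowly missed the threshold (log2 fold change 2.03 ± 0.57 (SE), edgeR adjusted p = 0.0518), and passed with DESeq2 (adjusted p = 0.0311), upper-quartile scaling (0.0457) and library size only (0.0356). Serpina11 differed by a log2 fold change of 0.06 with an edgeR adjusted p of 0.821.

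The serpins of coagulation, fibrinolysis and complement are made by hepatocytes and act in plasma. Serpinf2, alpha-2-antiplasmin, the main inhibitor of plasmin (chr11:75431736-75439501), had 793, 799 and 789 CPM in chow and 536, 492 and 531 CPM in HFHS. Both groups were tight and lay apart, with means of 794 ± 5.16 and 519.8 ± 24.1 CPM (SD, n = 3 each). It fell by 0.61 ± 0.15 (SE) on the log2 scale, edgeR adjusted p = 0.0358. With library size only the log2 fold change was -0.35 and did not pass (edgeR adjusted p = 0.139). Nor did Serpinf2 pass with the replicate number as a block (edgeR adjusted p = 0.0892).

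Antithrombin, Serpinc1, had 2382, 2238 and 2481 CPM in chow and 1749, 1391 and 1692 CPM in HFHS, or -0.56 ± 0.19 (SE) on the log2 scale, past no threshold (edgeR adjusted p = 0.0890). Heparin cofactor II, Serpind1, which like antithrombin inhibits thrombin, had 682, 749.7 and 674 CPM in chow and 558, 422 and 466 CPM in HFHS (log2 fold change -0.54 ± 0.17 (SE), edgeR adjusted p = 0.0735). Serpinf1, or PEDF, a secreted serpin that inhibits no protease, had 587, 616 and 654 CPM in chow and 463, 259 and 441 CPM in HFHS (log2 fold change -0.68 ± 0.24 (SE), edgeR adjusted p = 0.0948). In all 3 the groups did not overlap, yet none passed, and DESeq2 called each of them lower. Zbtb37 shares 2942 exon bases with Serpinc1 on the opposite strand but had a mean of only 5.59 CPM in HFHS, low beside Serpinc1.

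C1 inhibitor, Serping1, which blocks the first proteases of complement and plasma kallikrein, had 1243, 829 and 905 CPM in chow and 749, 715 and 886 CPM in HFHS. The groups overlapped (edgeR adjusted p = 0.310). Serpina10, which inhibits factor Xa with protein Z, had 313, 176 and 191 CPM in chow and 183, 236 and 235 CPM in HFHS. Its log2 fold change was -0.05 and turned positive under upper-quartile scaling (0.036) and with library size only (0.23).

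The proteases these serpins act on were taken from a list of 12 coagulation and fibrinolysis genes. The list also holds tissue factor, which is not a protease. All 12 were tested, and 2 rose and 3 fell, beside 11% and 3.61% of all tested genes by edgeR. The plasminogen activators Plau (log2 fold change 2.42, edgeR adjusted p = 0.0229) and Plat (3.36, adjusted p = 0.0322) rose. Plasma kallikrein (Klkb1, log2 fold change -0.86), factor VII (F7, -0.60) and protein C (Proc, -0.58) fell, with edgeR adjusted p of 0.0213, 0.0323 and 0.0377. The median of the 12 was -0.48, beside -0.02 over all genes. With library size only, 0 of the 12 were lower, beside 1.54% of all genes. Limma-voom called the same number lower (3) but 0 higher, beside 2.88% and 7.7% of all genes. All 5 lost their calls without chow replicate 2 and without chow replicate 3 (edgeR adjusted p of 0.0686 to 0.152). DESeq2 called 7 of the 12 lower, beside 7.53% of all genes, and 7 were lower at an unadjusted p under 0.05, beside 12.8%. Prothrombin (F2) had a log2 fold change of -0.48 and plasminogen (Plg) of -0.54, and neither passed in edgeR (adjusted p = 0.130 and 0.0962), though both did in DESeq2 (0.0067 and 0.000355).

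Serpine2, or protease nexin-1, which inhibits thrombin and plasminogen activators around cells, belongs to clade E. It had 9.46, 20.6 and 20.8 CPM in chow and 5.99, 10.3 and 6.54 CPM in HFHS. The lowest chow library overlapped the HFHS range, and the log2 fold change of -1.15 ± 0.34 (SE) missed the threshold (edgeR adjusted p = 0.0649). It passed with DESeq2 (adjusted p = 0.0106), and in edgeR with the replicate number as a block (-1.11, adjusted p = 0.0362) and without chow replicate 1 (-1.45, adjusted p = 0.0320), while without each of the other 5 libraries the adjusted p was 0.0598 to 0.189. Serpine3 had 1 count in each chow library and 0 in HFHS.

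Serpini1, or neuroserpin, an inhibitor of tissue plasminogen activator best known from neurons (chr3:75557493-75642523), was low. It had 6, 5 and 4 counts in chow and 15, 34 and 17 in HFHS, or 0.334, 0.275 and 0.269 CPM against 0.775, 1.31 and 0.950 CPM. All HFHS libraries lay above all chow libraries, with a log2 fold change of 1.77 ± 0.39 (SE), edgeR adjusted p = 0.0255. Serpini1 passed the low-count filter through the HFHS libraries only, where it is higher, so its separation and call are a description. Serpini2 had 0 counts.

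Serpinh1, or HSP47, is the chaperone that procollagen needs to fold in the endoplasmic reticulum, and is made by cells that secrete collagen. On chr7:99345375-99353239, it had 6.79, 5.99 and 4.24 CPM in chow and 20.8, 32.0 and 17.4 CPM in HFHS. The lowest HFHS library was above the highest chow library by a wide margin. The mean rose from 5.67 ± 1.30 to 23.4 ± 7.64 CPM (SD, n = 3 each), a log2 fold change of 2.04 ± 0.27 (SE), edgeR adjusted p = 0.0101, the smallest among the serpins.

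Markers of stellate cells and myofibroblasts, the collagen-making cells of liver, moved in the same direction. Of 9 such markers 8 rose by edgeR, where 11% of all tested genes did, and edgeR, DESeq2 and the unadjusted p under 0.05 gave 0 lower. Their summed level was 186 to 240 CPM in chow and 501 to 934 CPM in HFHS. Col1a1, a collagen chain, had 2.50, 1.76 and 1.21 CPM in chow and 23.6, 90.2 and 12.01 CPM in HFHS. Its HFHS mean was 41.9 CPM, and 17.8 CPM without replicate 2, where the log2 fold change went from 4.51 to 3.28 (edgeR adjusted p = 0.0248 and 0.00404). The order of the HFHS libraries was the same for Serpinh1 and for this sum, with replicate 2 highest and replicate 3 lowest. The part of these cells in the Serpinh1 value was not tested.

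Clade B serpins act inside cells. Serpinb6a, an inhibitor of cathepsin G and related proteases (chr13:33917918-34002794), had 15.5, 13.1 and 14.1 CPM in chow and 26.7, 56.1 and 31.9 CPM in HFHS. Chow libraries were close together, HFHS libraries were all higher, and replicate 2 was the highest. It rose by a log2 fold change of 1.43 ± 0.27 (SE), edgeR adjusted p = 0.0195. Nqo2 shares 762 exon bases with it on the opposite strand and had a log2 fold change of -0.52 that did not pass. The strand setting of the counting is not known, so reads of the shared bases could belong to either gene.

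Serpinb6b (chr13:32956811-32979067) had 2.56, 2.47 and 1.21 CPM in chow and 5.79, 14.1 and 8.21 CPM in HFHS. The groups were apart, and it rose by a log2 fold change of 2.16 ± 0.41 (SE), edgeR adjusted p = 0.0184, the largest rise among the serpins tested that passed. Serpinb9 (chr13:32997061-33017955), which protects cells from granzyme B, had 17.0, 14.5 and 12.9 CPM in chow and 21.6, 27.6 and 22.6 CPM in HFHS. It rose by a smaller log2 fold change of 0.69 ± 0.15 (SE), edgeR adjusted p = 0.0244. Serpinb8, an inhibitor of furin, had 6.51, 6.87 and 3.30 CPM in chow and 6.97, 9.01 and 8.83 CPM in HFHS and did not pass (edgeR adjusted p = 0.209).

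Serpinb1a was the clade B gene that fell. It is an inhibitor of neutrophil elastase, cathepsin G and proteinase 3, and lies on chr13:32842092-32853206, the same chromosome as Serpinb6a, Serpinb6b and Serpinb9. It had 25.1, 42.6 and 56.0 CPM in chow and 8.42, 12.3 and 6.26 CPM in HFHS. The highest HFHS library was below the lowest chow library. The mean fell from 41.2 ± 15.5 to 9.0 ± 3.07 CPM (SD, n = 3 each), a log2 fold change of -2.18 ± 0.35 (SE), edgeR adjusted p = 0.0146. Its neighbour in sequence Serpinb1c, untested, had 3, 14 and 13 counts in chow and 0, 3 and 0 in HFHS. Serpinb1c entered the edgeR test only under a looser filter or with 1 library left out, and it can pass the filter only through the chow libraries, where it is higher, so its values are a description. The adjusted p was 0.0478 with no low-count filter, 0.0574 with a summed count of at least 10, 0.0483 without chow replicate 1, and 0.0522 to 0.123 without HFHS replicate 1, 2 or 3.

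The other clade B genes were near or at 0. Serpinb3a, Serpinb3b, Serpinb3c, Serpinb3d, Serpinb6d, Serpinb6e, Serpinb9f and Serpinb11 had 0 counts in all libraries. Several low ones had their counts mostly in HFHS replicate 2, such as Serpinb9d with 13 counts there and 0 in the other 5 libraries, and Serpinb1b with 9 of 13. Of clade A, Serpina16 had 0 counts.

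Clade B serpins are found in leukocytes among other cells, and of the leukocyte marker lists both macrophage lists held mostly genes that rose. By edgeR 11% of all tested genes rose and 3.61% fell. Of 10 Kupffer cell and macrophage markers 8 rose and Marco fell, with a summed level of 247 to 350 CPM in chow and 728 to 1378 CPM in HFHS. All 6 markers of lipid-associated macrophages rose by edgeR and by DESeq2, beside 14% of all genes by DESeq2. By limma-voom 2 of the 6 rose, beside 7.7%. The sum of the 6 was 40.3 to 84.4 CPM in chow and 345 to 958 CPM in HFHS. Of 8 T, NK and B cell markers 7 were tested and Ncr1 rose, with a sum of 2.09 to 6.34 CPM in chow and 5.53 to 10.8 CPM in HFHS. Of 7 neutrophil markers 3 were tested and edgeR called 0. All 3 were higher at an unadjusted p under 0.05 and by DESeq2, beside 19.5% and 14% of all genes. The sum of the 7 was 2.29 to 8.12 CPM in chow and 11.1 to 37.0 CPM in HFHS. Ly6g, a defining neutrophil marker, was at 0 in 5 libraries and had 4 counts in HFHS replicate 2. In HFHS replicate 2, the library with the most Serpinb6a, Serpinb6b and Serpinb9, the macrophage and neutrophil sums were also highest, and their part in those values was not tested.

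By edgeR 11% of all tested genes rose. Endothelial markers rose for 4 of 7, with a sum of 158 to 201 CPM in chow and 237 to 308 CPM in HFHS. Cholangiocyte markers rose for 5 of 6, with a sum of 23.8 to 43.8 CPM in chow and 171 to 287 CPM in HFHS. Most of that sum was Spp1, which is also on the list of lipid-associated macrophages, and without it the sum was 4.23 to 8.74 CPM in chow and 9.27 to 23.8 CPM in HFHS. Liver tumour markers rose for 4 of 5, with a sum of 5.28 to 8.18 CPM in chow and 25.3 to 60.6 CPM in HFHS. Of 4 mesothelial markers 3 were tested and 2 rose, Wt1 and Krt19, the latter also on the cholangiocyte list, with a sum of 1.04 to 2.89 CPM in chow and 2.12 to 7.27 CPM in HFHS. Mesothelin (Msln) had a log2 fold change of -1.13 that did not pass, with 0 counts in HFHS replicates 1 and 3, and Upk3b, too low to test, had 29 counts in chow and 7 in HFHS. The part of these markers in the serpin values was not tested.

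Target proteases of leukocytes, complement and lysosomes were taken from a list of 15 genes, of which 10 were tested. The list also holds Mpo, a peroxidase and not a protease, which was too low to test. Ctss, the lysosomal cathepsin S of macrophages, rose (log2 fold change 2.41, edgeR adjusted p = 0.0183). That was 1 of 10, where 11% of all tested genes rose. By edgeR and DESeq2 0 fell, also at an unadjusted p under 0.05, and the median was 0.11. The complement protease C1ra came next by p and did not pass (log2 fold change -0.30). Of the targets of Serpinb1a, proteinase 3 (Prtn3) was tested and did not pass (log2 fold change 1.00, edgeR adjusted p = 0.581). Neutrophil elastase (Elane) and cathepsin G (Ctsg) were too low to test, and Ctsg was at 0 in 5 libraries with 2 counts in HFHS replicate 2.

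Serpin complexes are bound by cofactors and cleared by receptors. Of 9 such genes, all tested, edgeR called 1 higher, beside 11% of all genes, and 1 lower, beside 3.61%. DESeq2 called 2 higher and 3 lower, beside 14% and 7.53% of all genes. Thbd, the thrombin receptor that activates protein C, rose (log2 fold change 1.69, edgeR adjusted p = 0.0110), a call lost without chow replicate 3 (adjusted p = 0.0619). Asgr2, a subunit of the hepatocyte receptor for desialylated glycoproteins, fell (log2 fold change -0.52, edgeR adjusted p = 0.0345), a call lost with library size only (adjusted p = 0.282), upper-quartile scaling (0.0575), the replicate block (0.0876) and without HFHS replicate 1 or any 1 chow library (0.0811 to 0.145). The median of the 9 was -0.30. Vitronectin (Vtn), an adhesive plasma protein, had a log2 fold change of -0.39 and did not pass.

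Other secreted protease inhibitors that are not serpins were a list of 24, of which 23 were tested. By edgeR 6 rose and 0 fell, beside 11% and 3.61% of all tested genes. At an unadjusted p under 0.05 there were 6 lower, beside 12.8% of all genes, and by DESeq2 there were 5, beside 7.53%. The median was -0.11. Tfpi, the tissue factor pathway inhibitor, rose with a log2 fold change of 1.28 (edgeR adjusted p = 0.0101), and Wfdc2 with 1.11 (adjusted p = 0.0109). The metalloprotease inhibitors Timp3 (1.20) and Timp2 (1.99) rose, as did Spink1 (4.02, also on the list of tumour markers) and Spint1 (2.09). Of the abundant plasma inhibitors of the list, Ambp (-0.65), Mug2 (-0.77) and Itih2 (-0.48) had log2 fold changes below 0. So did Fetub (-0.68), Itih1 (-0.43), Kng1 (-0.43), Mug1 (-0.37), Pzp (-0.24), Ahsg (-0.16) and Kng2 (-0.11). Itih3 (0.18) and Itih4 (0.03) were above 0, and none of these abundant ones passed in edgeR.

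Acute phase signalling through IL-6 and STAT3 induces several clade A serpins. Of 22 genes of that pathway 21 were tested. By edgeR 1 of the 21 rose, beside 11% of all tested genes. It was Osmr, a receptor subunit for oncostatin M (log2 fold change 1.51, edgeR adjusted p = 0.0170). EdgeR called 0 lower, beside 3.61% of all tested genes, and the median was 0.35. At an unadjusted p under 0.05 there were 3 lower and by DESeq2 2, beside 12.8% and 7.53% of all genes. Lifr, the receptor for leukaemia inhibitory factor, came next by p and did not pass (log2 fold change -0.97, edgeR adjusted p = 0.0604). Of 14 genes for folding and quality control of secreted proteins, which retain misfolded alpha-1-antitrypsin, edgeR, DESeq2 and limma-voom called 0. Of the 14, 1 was lower at an unadjusted p under 0.05, beside 12.8% of all genes. The median of the 14 was -0.08. The smallest edgeR adjusted p in the list was 0.118, for the ubiquitin ligase Syvn1 (log2 fold change -0.27), followed by the lectin Edem1 (-0.21, adjusted p = 0.397).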

How the data were processed

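Whole-number counts of reads per gene were used as deposited, 1 table per library. Per the labels' protocols, libraries came from liver polyA RNA with a dUTP-based stranded kit. Per the submitters' processing notes, STAR and mm10 were used. For the counter, annotation, strand setting and read length, nothing is given in the sources used here. Reads outside genes (7.74% to 10.6% of all counts) and ambiguous reads (0.615% to 0.862%) were left out. Within a group, the chi-square per gene between libraries was at least 23.5, so none was a copy.

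Genes were filtered with filterByExpr at a minimum count of 10, scaled by TMM (factors 0.897 to 1.26) and tested with edgeR's robust quasi-likelihood test, without covariates (edgeR 4.0.16 in R 4.3.3, with limma 3.58.1). P-values were adjusted by Benjamini-Hochberg across the 12949 genes, with a threshold of 0.05. CPM used the scaled library sizes. Alternatives were other scalings and filters, DESeq2 1.42.0, limma-voom, a replicate block, each library left out, and copies summed before the fit. The fit was tested on simulated data. Standard errors come from the edgeR fit and SDs from the scatter among the libraries of a group. The floor covers counting error only.

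The serpins, the pathway and marker lists and the rule for named genes were chosen with earlier results of these data known. Every serpin is accounted for in the counts, and 1 is not reported here by itself. Values per library are given for those past the threshold and for a set list of others. The 2 genes with the smallest p of each pathway list are named, and further ones were chosen after their values were seen. Transcripts came from GENCODE M21, gene spans and promoters from RefSeq GRCm38.p6, with 53 of 63 serpins matched to a promoter, 63 to a transcript and 62 to a coding sequence. Coding sequences were aligned with Biopython 1.88.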

Additional observations from a re-analysis of the deposited data

How the results depend on the processing

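With 3 libraries a group, leaving out 1 library moved the counts. Over these 6 fits, all genes higher ran from 4 to 1664 and all genes lower from 2 to 772, serpins higher from 0 to 6 and serpins lower from 0 to 5, and the log2 fold change of the summed Serpina1 copies from -1.18 to -0.73. With library size only, which shifted the median log2 fold change of all genes by 0.269, 1928 genes were higher and 200 lower, and 8 serpins were higher and 2 lower. Upper-quartile scaling gave 1649 higher and 327 lower, with 7 and 3 serpins. DESeq2 called 974 genes lower, with 11 serpins lower and 8 higher, and the summed Serpina1 copies at -1.02 (adjusted p = 0.00282). With the copies summed before the fit, 2 serpins were lower. With the replicate number as a block, 961 genes were higher and 282 lower, with 4 serpins higher and 2 lower. In that fit Serpina1a, Serpina1c, Serpinb9, Serpinf2 and Serpini1 lost their calls (edgeR adjusted p of 0.0506 to 0.0892), and Serpine2 gained one. Deviations of same-numbered libraries correlated at -0.253, -0.166 and 0.0292, and those of differently numbered ones at -0.0795 to 0.234. These few values show no pairing by number, but cannot settle whether the numbers mark pairs. Serpina3m turned positive under upper-quartile scaling (0.052), library size only (0.25), limma-voom (0.025) and the block (0.032), and ran from -0.33 to 0.15 with 1 library left out. Serpina10 did so under upper-quartile scaling (0.036) and library size only (0.23), and ran from -0.22 to 0.24 with 1 library left out. The cause was not tested. Depth limits the serpins that the low-count filter removed, with at most 57 counts over the 6 libraries, which were tested only with a looser filter or, for some, with 1 library left out.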
